A study of Oryctolagus cuniculus with 3 samples.

Results

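In rabbit corneal epithelial cells, 54 genes dipped in the library of committed cells and stood higher again in that of terminally differentiated cells. They encode, among others, proteins of the basement membrane (LAMA3, NID2), matrix and wound-response proteins (CTGF, MMP10, TIMP3), the inducible prostaglandin enzyme PTGS2, cell-surface receptors (GPRC5A, ADGRF1, PTPRJ) and signalling scaffolds (AKAP12). They were chosen by these measured values: a member had to be at least 2-fold lower on day 6 than on day 4 and also than on day 10, as log2(CPM + 1), where CPM is fragments per 1e6 scaled to library size. The rule leaves out names beginning with SLC or KRT, none of which had the pattern, and 7 genes that had it (RLN1, LOC100341333, LOC108175413, LOC100346250, LOC100346509, LOC100347029 and DKK1). The members are 54 of the 20536 gene names in the tables and of the 12822 genes that reached 1 CPM in at least 1 library.

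RNA was sequenced from RCE1(5T5), a cell line of rabbit corneal epithelium, at 3 stages with 1 library each. On day 4 the cells were labelled non-differentiated, on day 6 they were committed, and by day 10 terminally differentiated. All 3 cultures grew on 3T3 mouse fibroblasts arrested with mitomycin C, in medium with fetal calf serum, insulin, transferrin, hydrocortisone, triiodothyronine, cholera toxin, adenine and epidermal growth factor. EDTA removed that feeder layer ahead of the extraction of total RNA. Each stage is a single library of a single line, so no difference below has a replicate check, no test was run, and stage, day and library cannot be told apart.

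The basement membrane is the sheet of laminin, nidogen and collagen on which a corneal epithelium sits; its cells hold to it through hemidesmosomes. Basal cells that commit to differentiation leave the cell cycle, loosen from this sheet and move up into the stratified layers. Immediate early and other quickly induced genes, such as PTGS2 and CTGF, are known as genes that serum, growth factors and stretch switch on and whose mRNA is short-lived.

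The libraries held 10171693, 12582706 and 10899578 fragments on days 4, 6 and 10. Of 16 measured corneal epithelial markers, 12 were at least 2-fold higher on day 6 than on day 4 and 0 lower, and their summed level was 2060, 4929 and 6645 CPM on days 4, 6 and 10. Markers of fibroblasts and feeder cells moved the other way: of 25, 24 are named in the tables and 23 were measured, 6 of which fell and 0 rose by day 6, and they summed to 8118, 5242 and 3195 CPM, with LUM at 0 in all 3 libraries. Immune markers (3 of 12 measured) summed to 8.64, 28.0 and 73.6 CPM with TYROBP, FCER1G, ITGAM, CD3E, CD3D and MS4A1 at 0. Endothelial markers (4 measured, PECAM1 and PLVAP at 0) summed to 10.1, 12.2 and 9.89 CPM, and melanocyte markers (3 measured, MLANA, TYR and DCT at 0) to 7.52, 11.1 and 36.0 CPM. None of these 4 other-cell sums was lowest on day 6, and no member is on those lists; their part in the members' values was not tested. In such bulk RNA, fewer cells of a type and less RNA per cell cannot be told apart.

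A dip with return was an uncommon course. By day 6, 865 measured genes (6.75%) had fallen and 1035 (8.07%) had risen at least 2-fold against day 4. Between day 6 and day 10, 1055 (8.23%) rose and 911 (7.10%) fell. Of the 865 that fell first, 61 (7.05%) rose again, 143 (16.5%) fell further and 661 (76.4%) moved less than 2-fold. The 61 genes with the pattern are 0.476% of measured genes, the 54 members 0.421%, and the mirror pattern, a peak on day 6, was held by 49 genes (0.382%). "Rose" and "fell" below mean at least 2-fold on the log2(CPM + 1) scale between the named libraries; for the members these steps are what chose them and serve as description.

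**Figure D1:**
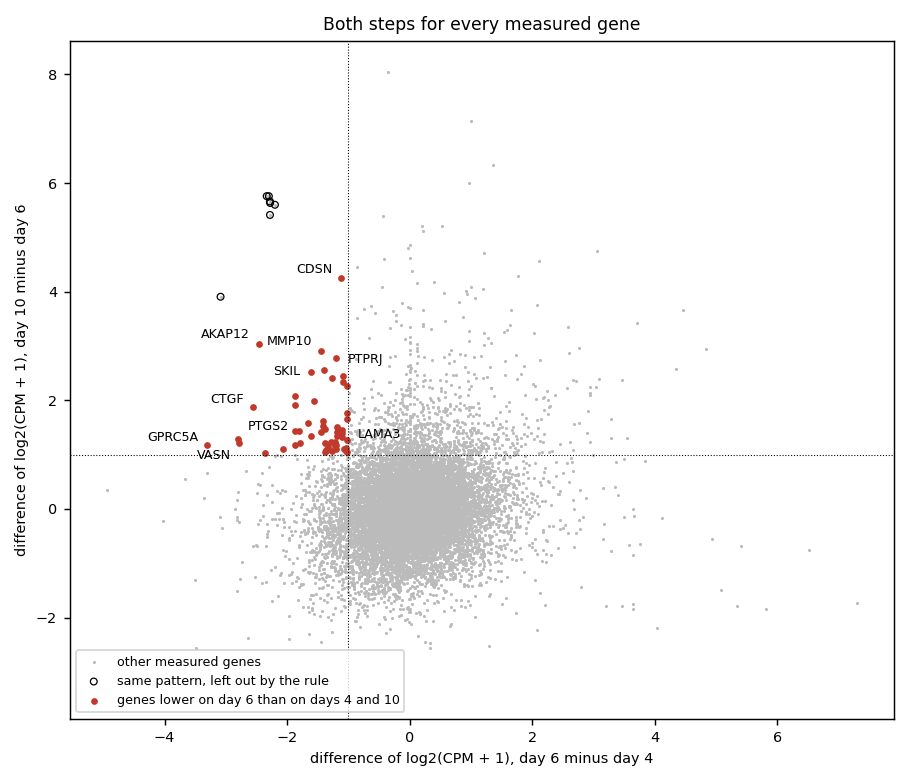
Each point is a measured gene; the x axis is the log2(CPM + 1) difference of day 6 minus day 4 and the y axis that of day 10 minus day 6, with the members coloured, the 7 left-out names as open circles and the other genes in grey. The members fill the upper left corner, from -3.31 to -1.02 on the x axis and from 1.03 to 4.24 on the y axis.

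Members were moderately expressed. Their median was 17.8, 5.02 and 24.7 CPM on days 4, 6 and 10, while the median over all measured genes was 17.7, 17.6 and 18.2 CPM. In sum they took 2881, 1052 and 2999.7 CPM on days 4, 6 and 10. The median member differed by -1.34 between day 6 and day 4 and by 1.39 between day 10 and day 6 on the log2 scale, against 0.00 and -0.01 over all measured genes. Fragments behind the day 6 values ran from 2 to 2777 per gene, with 19 members under 30. A fold given for a gene is its ratio of CPM, without the added 1, with its exact 95% counting interval in parentheses. That interval lay above 1 for both steps in 54 of 54 members and above 2 in 22. The rule chose the members by these same fragments, so these counts are no separate support for the dip. The interval covers counting error only, not the spread between cultures.

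Roles were given to the members alone, after their values were seen, and matrix and adhesion genes formed the largest group, with 10 members. No share of all measured genes with that role stands beside this count. LAMA3, the alpha chain of the epithelial laminin, had 498, 230.3 and 609 CPM on days 4, 6 and 10. It was 2.16-fold lower on day 6 than on day 4 (2.06 to 2.26) and 2.65-fold higher on day 10 than on day 6 (2.53 to 2.77). On day 10 it stood above its day 4 level in CPM, at 1.22 times (1.18 to 1.27).

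LAMB3, which encodes the beta chain of the same laminin, is not a member; it moved the same way by less than 2-fold, with 418, 284 and 399 CPM on days 4, 6 and 10. It was 1.47-fold lower on day 6 than on day 4 (1.41 to 1.54) and 1.41-fold higher on day 10 than on day 6 (1.34 to 1.47). On the length-scaled TPM scale LAMA3 had 62.1, 22.4 and 57.5 TPM on days 4, 6 and 10. There its day 10 level lay below that of day 4, the reverse of its CPM ratio. Chains of other laminins did something else: LAMA4, a chain of vascular and mesenchymal laminins, had 47.6, 16.4 and 7.25 CPM, and LAMA5, found in most adult epithelial basement membranes, had 59.0, 84.4 and 110.9 CPM.

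NID2 encodes a nidogen, a protein that links laminin to collagen IV. It had 28.4, 10.3 and 30.2 CPM on days 4, 6 and 10, a dip of 2.77-fold (2.24 to 3.44) and a return of 2.94-fold (2.38 to 3.65). Its paralog NID1 fell and stayed low, with 86.4, 14.7 and 11.96 CPM. COL5A3, a chain of the minor fibrillar collagen V, had 47.6, 15.4 and 64.05 CPM on days 4, 6 and 10, and its return was 4.15-fold (3.53 to 4.91). The other collagen V chains were lower on each later day, with COL5A1 at 18.2, 9.54 and 6.97 CPM and COL5A2 at 398, 251 and 188 CPM. On day 10 COL5A3 stood above its day 4 level, at 1.34 times (1.198 to 1.51), while for NID2 the interval of that ratio (0.906 to 1.25) included 1.

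A protease inhibitor and a protease of matrix turnover are members too. TIMP3, a matrix-bound inhibitor of metalloproteinases, had 33.4, 9.87 and 31.6 CPM on days 4, 6 and 10, falling 3.38-fold by day 6 (2.74 to 4.20) and ending at 0.947 times its day 4 level (0.814 to 1.10). The relative TIMP2 had 71.1, 51.1 and 67.3 CPM, and TIMP1, with 22.9, 33.8 and 50.1 CPM, had no low point on day 6. MMP10, a stromelysin that cuts many matrix proteins, rested on few fragments, 36 on day 4 and 7 on day 6; its levels were 3.30, 0.581 and 10.9 CPM. It was 18.8-fold higher on day 10 than on day 6, with a wide interval (8.85 to 47.8), and 3.31-fold higher on day 10 than on day 4 (2.26 to 4.95).

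CTGF, a secreted matricellular protein and a textbook target of the YAP and TEAD pathway, had 105, 17.1 and 65.4 CPM on days 4, 6 and 10. It fell 6.17-fold by day 6 (5.32 to 7.19), rose 3.83-fold after that (3.27 to 4.49) and regained 0.620 of its day 4 level (0.563 to 0.682). CYR61, its closest relative and also a target of that pathway, fell 15.01-fold by day 6 (11.5 to 19.9) and stayed low at 74.7, 4.98 and 7.72 CPM. Both were lowest on day 6, and only the CTGF return reached 2-fold.

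CDSN and ECM1 are proteins of upper epithelial layers. CDSN, corneodesmosin, which glues cornifying cells together, had 42, 15 and 441 fragments, or 3.85, 1.24 and 41.5 CPM on days 4, 6 and 10. Its 33.4-fold return (20.02 to 60.2) was the steepest of the 54, and on day 10 it stood 10.8-fold above day 4 (7.84 to 15.2). ECM1, a secreted protein of basement membrane and epidermis, had 14.8, 6.36 and 19.1 CPM. CDH6, a type II cadherin, had 9.93, 3.81 and 11.2 CPM.

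**Figure D2:**
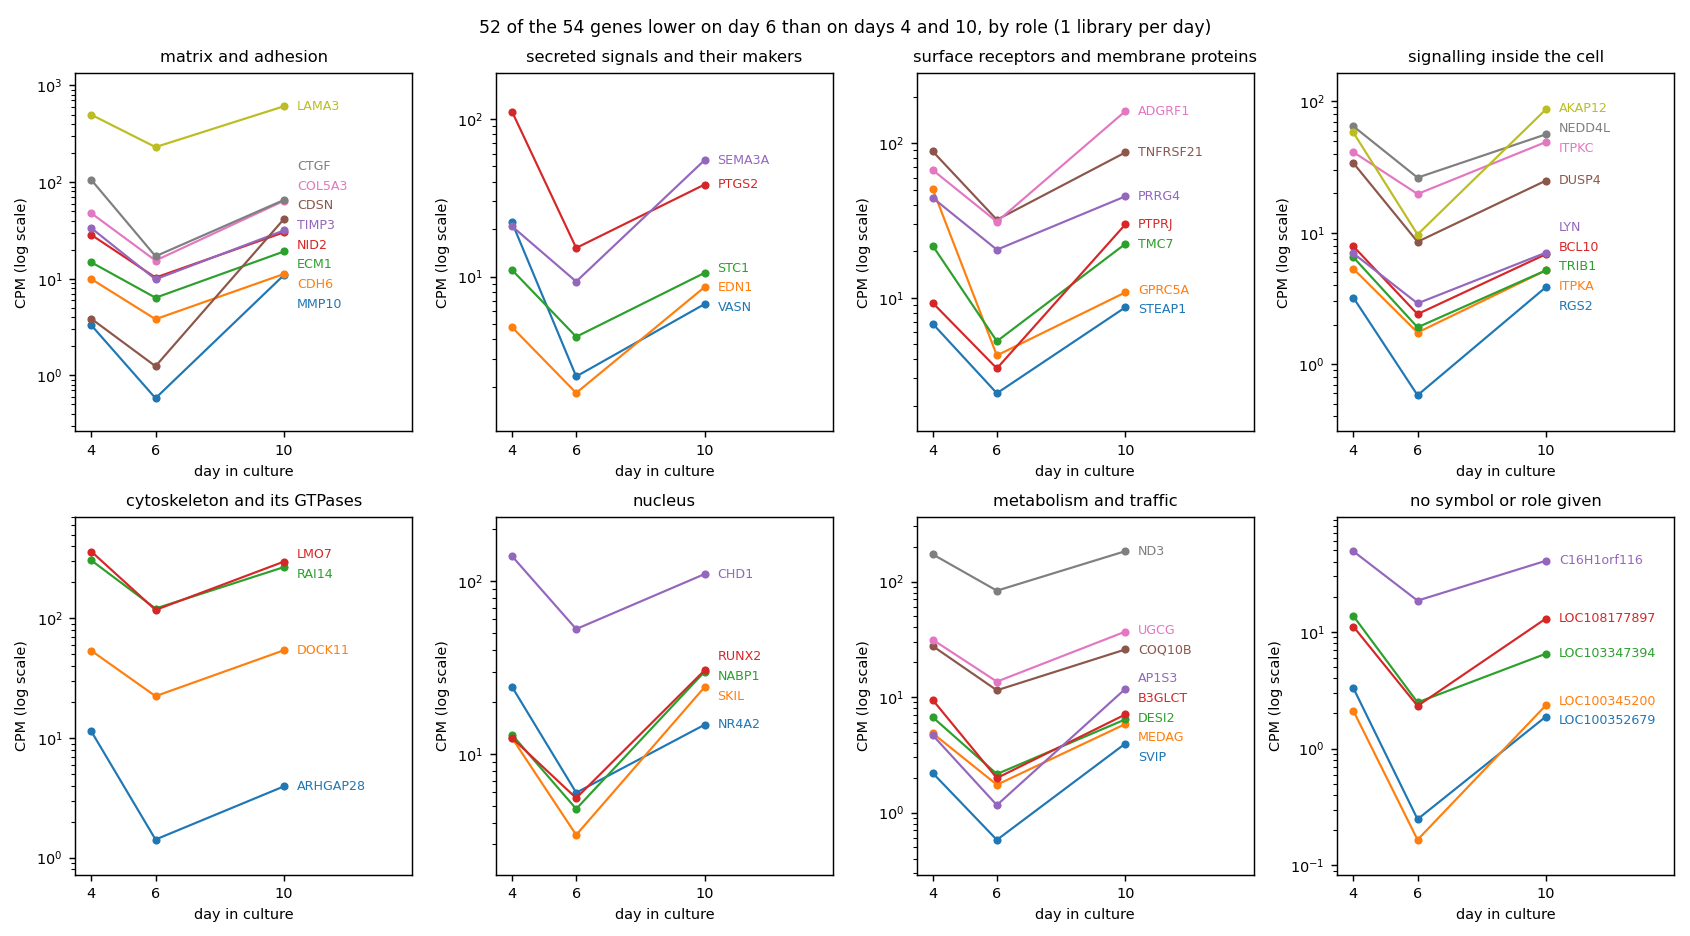
Level of 52 of the 54 members in CPM on a log y axis against day in culture (4, 6 and 10) on the x axis, 1 line per gene and 1 panel per role, from 1 library a day. All 52 lines have their lowest point on day 6; CDSN leaves the matrix panel's other low genes behind on day 10, at 41.5 CPM.

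Secreted signals, counting an enzyme that makes one and a shed membrane protein, numbered 5. PTGS2, the inducible cyclooxygenase that makes prostaglandin precursors, had 111, 15.2 and 38.3 CPM on days 4, 6 and 10. It fell 7.34-fold by day 6 (6.28 to 8.62), returned 2.53-fold (2.12 to 3.02) and ended 2.91-fold below day 4 (2.60 to 3.26). Its constitutive relative PTGS1 fell in both steps, with 31.6, 14.8 and 5.56 CPM. PTGES, the prostaglandin E synthase downstream of both, had 36.4, 71.7 and 107.6 CPM on days 4, 6 and 10, with no low point on day 6.

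VASN, a membrane-anchored and shed protein that binds TGF-beta, had 22.0, 2.32 and 6.69 CPM on days 4, 6 and 10. It fell 9.48-fold (6.40 to 14.6) and recovered only in part, to 3.29-fold below day 4 (2.52 to 4.36). SEMA3A, a secreted repellent of growing axons, did the opposite and overshot: 20.8, 9.29 and 54.8 CPM on days 4, 6 and 10, which is 2.63-fold above day 4 (2.25 to 3.08). SEMA3F, another class 3 semaphorin, had 70.2, 184 and 177 CPM and did not dip. EDN1, the precursor of the vasoconstrictor endothelin, had 4.77, 1.82 and 8.57 CPM. STC1, a secreted glycoprotein hormone, had 11.01, 4.15 and 10.5 CPM. Its relative STC2 had 2.20, 12.4 and 1.88 CPM, a peak on the day on which STC1 was lowest.

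Among the 7 receptors and membrane proteins, GPRC5A had the deepest fall. GPRC5A, an orphan receptor induced by retinoic acid, had 553, 51 and 115 fragments, or 50.7, 4.23 and 10.8 CPM on days 4, 6 and 10. It was 11.99-fold lower on day 6 than on day 4 (9.00 to 16.3) and still 4.68-fold lower on day 10 than on day 4 (3.83 to 5.78). GPRC5B, a relative, fell by day 6 and had 7.71, 1.99 and 1.21 CPM.

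ADGRF1 and PTPRJ overshot instead. ADGRF1, an adhesion G protein-coupled receptor, had 67.3, 31.1 and 162 CPM on days 4, 6 and 10, 2.40-fold above day 4 (2.20 to 2.62). PTPRJ, a receptor tyrosine phosphatase, had 9.27, 3.48 and 29.9 CPM, 8.57-fold higher on day 10 than on day 6 (6.20 to 12.1) and 3.22-fold higher than on day 4 (2.57 to 4.07). TNFRSF21, a death receptor of the TNF family, had 88.9, 32.0 and 87.4 CPM and ended at 0.983 times its day 4 level (0.897 to 1.08). TMC7, a transmembrane channel-like protein, had 21.7, 5.22 and 22.3 CPM. PRRG4, a transmembrane protein with a vitamin K-dependent Gla domain, had 44.4, 20.5 and 45.4 CPM. For TNFRSF21, TMC7 and PRRG4 the interval of the day 10 over day 4 ratio included 1. STEAP1, of a family of metalloreductases, had 6.79, 2.41 and 8.67 CPM. STEAP2, a relative, had 7.34, 1.99 and 1.70 CPM and stayed low.

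The 9 signalling members were led by AKAP12, a scaffold that holds protein kinases A and C near the membrane. AKAP12 had 632, 117 and 925 fragments, or 58.0, 9.70 and 87.1 CPM on days 4, 6 and 10. It fell 5.98-fold by day 6 (4.90 to 7.34) and rose 8.98-fold by day 10 (7.40 to 10.98), and on the log2(CPM + 1) scale it was the only member with at least 4-fold in both steps. On day 10 it stood 1.502-fold above day 4 (1.36 to 1.66).

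DUSP4, a nuclear phosphatase that switches off MAP kinases, had 34.0, 8.54 and 24.96 CPM on days 4, 6 and 10. Other phosphatases of its family varied. DUSP5 fell and stayed low at 24.8, 2.74 and 2.17 CPM, and DUSP6 fell only after day 6 at 32.2, 29.4 and 11.7 CPM. DUSP1 came close to the pattern at 27.3, 13.5 and 50.6 CPM, as did DUSP2 at 3.40, 1.33 and 3.58 CPM. DUSP2 fell 2.56-fold (1.39 to 4.93) and rose 2.70-fold (1.47 to 5.18), but its log2(CPM + 1) differences were -0.92 and 0.98. ITPKC, a kinase that phosphorylates inositol trisphosphate, had 41.1, 19.7 and 49.1 CPM. ITPKA, a kinase of the same reaction, had 5.32, 1.74 and 5.18 CPM. The kinase of the same family that is no member, ITPKB, had 3.12, 7.05 and 5.37 CPM and was highest on day 6. The interval of its day 10 over day 6 ratio (0.535 to 1.08) included 1.

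NEDD4L, a ubiquitin ligase known for removing the epithelial sodium channel from the membrane, had 64.7, 26.3 and 56.2 CPM on days 4, 6 and 10. LYN, a Src-family kinase, had 6.97, 2.90 and 7.06 CPM. BCL10, an adaptor on the way to NF-kB, had 7.89, 2.41 and 6.88 CPM. TRIB1, a pseudokinase that guides a ubiquitin ligase, had 6.52, 1.91 and 5.18 CPM, while TRIB3, a stress-induced relative, peaked on day 6 with 5.51, 13.6 and 5.46 CPM. RGS2, which shortens signals of Gq-coupled receptors, had 35, 7 and 41 fragments, or 3.21, 0.581 and 3.86 CPM. All 5 of these members returned to within 2-fold of day 4.

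Of the 5 cytoskeletal members, LMO7 and RAI14 were abundant. LMO7, an actin-associated protein of adherens junctions, had 362, 118 and 298 CPM on days 4, 6 and 10, a fall of 3.08-fold (2.90 to 3.27) and a return of 2.54-fold (2.38 to 2.70). RAI14, an actin-binding ankyrin repeat protein, had 306, 121 and 268 CPM. DOCK11, which activates CDC42, had 53.7, 22.4 and 54.2 CPM. ARHGAP28, a GTPase-activating protein, had 124, 17 and 42 fragments, or 11.4, 1.42 and 3.95 CPM, and ended 2.88-fold below day 4 (2.01 to 4.19).

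In the nucleus, 5 members differed in how far they came back. RUNX2, a transcription factor best known from bone, had 12.4, 5.56 and 30.5 CPM on days 4, 6 and 10, 2.46-fold above day 4 (2.01 to 3.03). RUNX1 followed a shallower course of 10.0, 5.24 and 10.6 CPM. SKIL, a corepressor that restrains SMAD proteins, had 12.4, 3.40 and 24.4 CPM, rising 7.17-fold after day 6 (5.15 to 10.2). NABP1, a single-stranded DNA-binding protein of DNA repair, had 12.9, 4.81 and 29.95 CPM.

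NR4A2, an orphan nuclear receptor induced as an immediate early gene, fell short of its starting level. It had 24.5, 5.97 and 14.8 CPM on days 4, 6 and 10. Its relatives NR4A1 and NR4A3 fell by day 6 too and were lower still on day 10, with 14.5, 3.66 and 1.13 CPM for NR4A1 and 4.33, 1.58 and 0.584 CPM for NR4A3. CHD1, a chromatin remodeller tied to active transcription, had 139.6, 52.8 and 109.9 CPM and fell 2.64-fold (2.41 to 2.90). CHD4, its relative in the NuRD complex, had 433, 395 and 429.7 CPM, and CHD2 had 66.0, 68.5 and 78.6 CPM. CHD7, another relative, was also lowest on day 6, by less than 2-fold, with 53.2, 33.0 and 63.3 CPM.

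**Figure D3:**
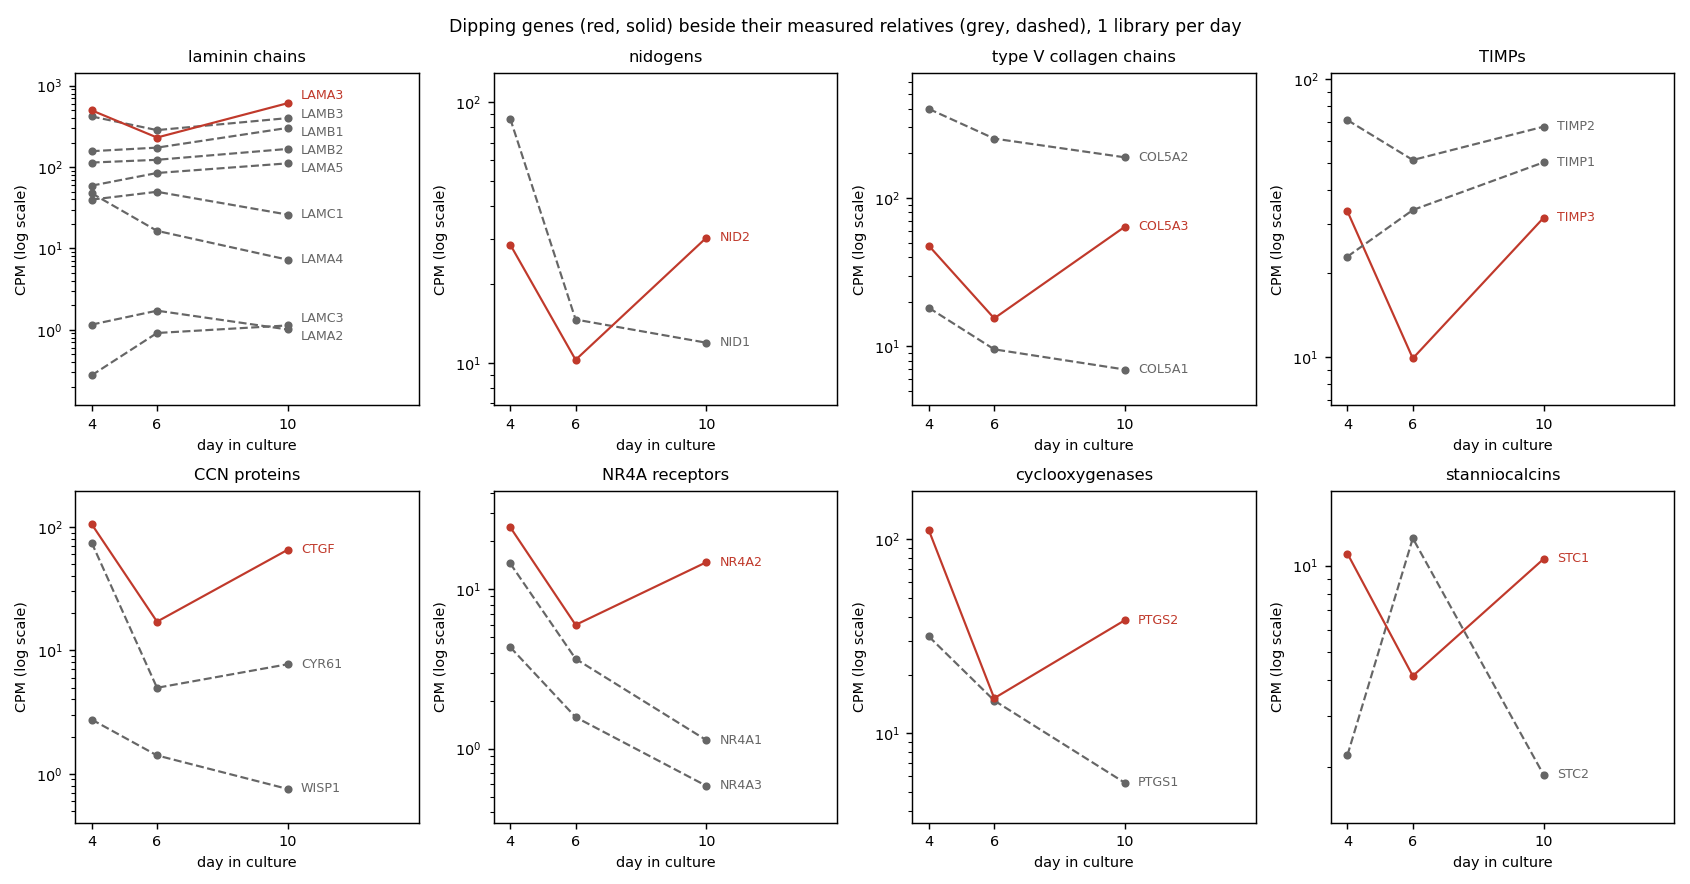
Members (red, solid) and measured relatives (grey, dashed) of 8 gene families, in CPM on a log y axis against day in culture on the x axis, 1 library a day. On day 10 the members stand above their day 6 level, as do relatives such as LAMB1, LAMB3, LAMA5, TIMP1 and TIMP2. Other relatives, such as NID1, NR4A1 and PTGS1, lie below theirs, and CYR61 reaches 7.72 CPM, against 4.98 CPM on day 6.

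Metabolism and traffic gave 8 members. ND3, a subunit of respiratory complex I encoded by mitochondrial DNA, had 172, 83.3 and 183 CPM on days 4, 6 and 10, and was the most abundant member per length, with 641, 238 and 525 TPM on days 4, 6 and 10. None of the 12 other mitochondrial protein genes had the pattern: their differences ran from -1.18 to 0.36 between day 6 and day 4 and from -0.65 to 0.74 between day 10 and day 6 on the log2 scale. Of those 12, 7 were lower on day 6 than on day 4, and 4 were also higher again on day 10. ND6, also of complex I, fell by day 6 and returned by less than 2-fold, with 331, 145 and 224 CPM on days 4, 6 and 10. ND2, of the same complex, had 613, 377 and 631 CPM. AP1S3, a small subunit of the AP-1 clathrin adaptor, had 4.68, 1.16 and 11.8 CPM and overshot 2.52-fold (1.80 to 3.56). Its relative AP1S2 had 10.0, 6.05 and 11.6 CPM.

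UGCG, which makes glucosylceramide, had 31.4, 13.6 and 36.8 CPM on days 4, 6 and 10. COQ10B, a coenzyme Q-binding protein of mitochondria, had 27.6, 11.4 and 25.8 CPM. B3GLCT, which adds glucose to O-fucose on thrombospondin repeats, had 9.45, 1.99 and 7.06 CPM. These 3 enzymes and binding proteins closed within 2-fold of day 4. DESI2, named as a peptidase that removes SUMO, had 6.70, 2.16 and 6.40 CPM. SVIP, a small inhibitor of protein degradation at the endoplasmic reticulum, had 2.20, 0.581 and 3.96 CPM. MEDAG had 4.86, 1.74 and 5.84 CPM.

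The remaining 5 members carry no symbol with a described role. C16H1orf116 had 48.9, 18.5 and 40.6 CPM on days 4, 6 and 10. LOC108177897 had 11.1, 2.32 and 12.998 CPM. LOC103347394 had 13.7, 2.49 and 6.499 CPM, and its return took it to 0.475 times its day 4 level (0.352 to 0.636). LOC100345200 and LOC100352679 were near the limit of detection on day 6, with 23, 2 and 25 fragments and 36, 3 and 20 fragments. The 12.7-fold (3.14 to 111) and 13.3-fold (4.20 to 67.4) falls of those last 2 are bounded only loosely.

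Relatives were gathered by symbol for 19 gene families with a member, chosen after the values were seen. They hold 84 genes, of which 21 are members and 63 are relatives; 9 relatives fell by day 6, and by the rule none of these could also have risen. By day 10 against day 6, 4 relatives rose: DUSP1, DUSP16, CHD9 and TMC5.

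How far each gene came back varied widely. On day 10, 31 members stood above and 23 below their day 4 level, where 50.5% of all measured genes stood above it, and the median difference was 0.03 on the log2 scale against 0.01 over all measured genes. Day 10 was within 2-fold of day 4 for 42 members and within 0.5 on the log2 scale for 34. Most measured genes were within 2-fold too, as 17.1% were at least 2-fold higher and 15.8% at least 2-fold lower. For 23 members the counting interval of that ratio spanned 1, for 18 it lay above 1 and for 13 below. For the bound of 0.5 and for the intervals, the shares over all measured genes were not computed. The 8 members at least 2-fold higher on day 10 than on day 4, where 17.1% of all measured genes were, are CDSN, MMP10, PTPRJ, SEMA3A, AP1S3, RUNX2, ADGRF1 and NABP1. The 4 at least 2-fold lower, where 15.8% were, are GPRC5A, VASN, PTGS2 and ARHGAP28. These counts are on the log2(CPM + 1) scale, on which LOC103347394 falls just short. In the deposited TPM 2 members were at least 2-fold higher and 6 at least 2-fold lower on day 10 than on day 4. These day 10 values share both libraries with the rule, so they are a description.

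**Figure D4:**
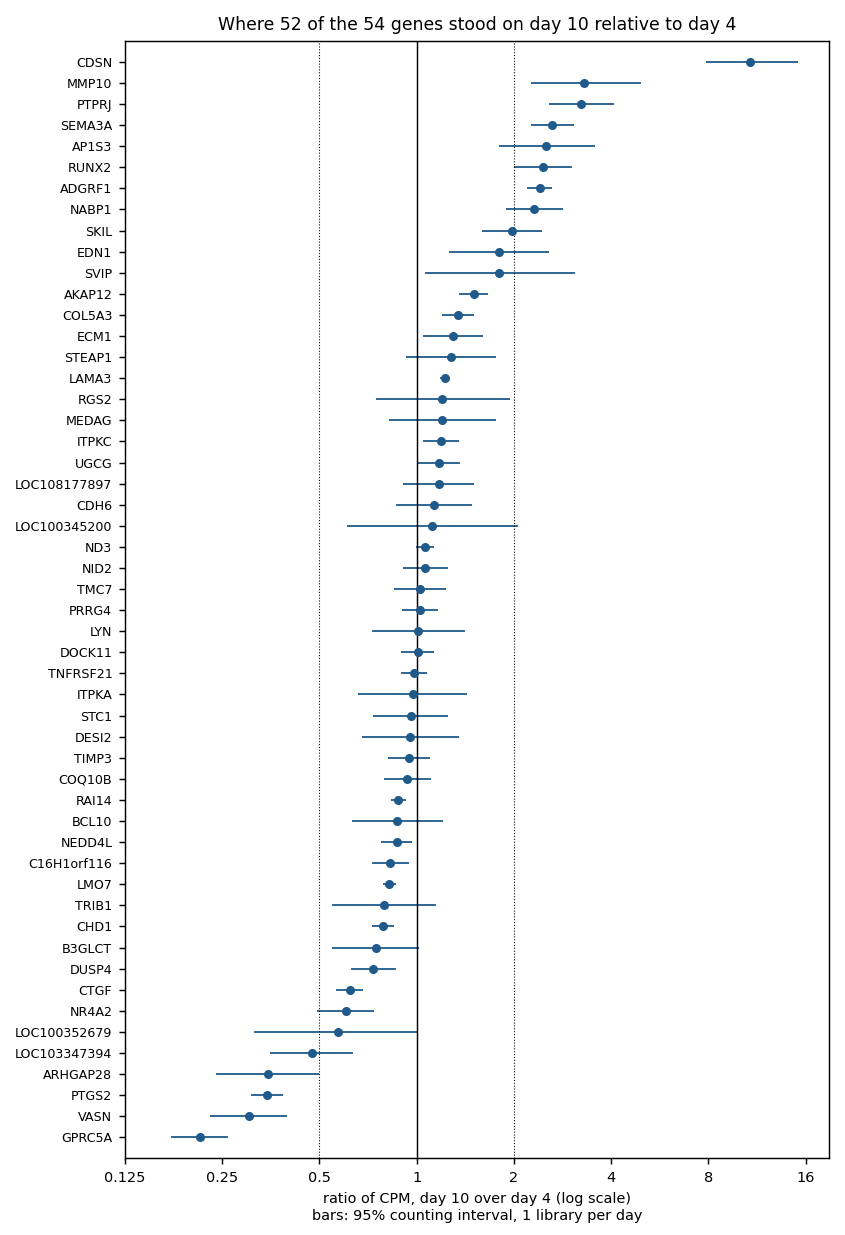
Ratio of day 10 to day 4 CPM of 52 of the 54 members on a log axis, ordered by size, with 95% exact counting intervals as bars. CDSN stands at 10.8 and GPRC5A at 0.214, and the intervals of 22 of the 52 include 1.

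By role, the interval of the day 10 over day 4 ratio lay above 1 for 6 of 10 matrix and adhesion members, 2 of 5 secreted signals, 2 of 7 surface proteins, 2 of 9 signalling proteins, 0 of 5 cytoskeletal, 3 of 5 nuclear and 3 of 8 metabolic members. The roles were assigned after the values were seen, and no share over all measured genes was computed, so these counts are a description. Whether an interval excludes 1 also depends on the number of fragments. For LAMA3 at 1.22 times (1.18 to 1.27) it did, and for STEAP1 at 1.28 times (0.929 to 1.76) it did not.

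Of 38 gene lists for pathways and cell types, 12 hold a member and 17 members are on a list, as matched by symbol. ADGRF1, listed under an older symbol, is not among the 17. The share of all measured genes that are on a list was not computed, so this count is a description only. The counts below stand beside 6.75% of all measured genes falling and 8.07% rising by day 6, and 8.23% rising and 7.10% falling by day 10. Of 31 measured genes of basement membrane and hemidesmosome, 9 fell and 0 rose by day 6, and 7 rose and 2 fell by day 10, with median log2 differences of -0.49 and 0.31, against 0.00 and -0.01 over all measured genes. LAMA3 and NID2 are among them. Collagens fell in both steps, 10 of 31 by day 6 and 10 of 31 by day 10, with 0 and 3 rising and medians of -0.80 and -0.78; COL5A3 was the member. Immediate early and AP-1 genes had 11 of 27 falling and 1 rising by day 6 and 4 rising and 2 falling by day 10, with medians of -0.92 and 0.06; NR4A2 and CTGF are among them.

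Cornified envelope genes went up as a group, 14 of 24 rising and 2 falling by day 6 and 11 rising and 2 falling by day 10, with medians of 1.16 and 0.78. CDSN and ECM1 were the 2 of that list that fell by day 6. Of 35 metalloproteinases and TIMPs, 5 fell and 2 rose by day 6, and 7 rose and 3 fell by day 10, with MMP10 and TIMP3 as members. Of 54 patterning factors, 13 fell and 6 rose by day 6 and 3 rose and 7 fell by day 10, with RUNX2 as a member. Of 46 junction genes 10 fell and 4 rose by day 6, and 8 rose and 5 fell by day 10, with CDH6 as a member. Of 20 YAP and TEAD targets 5 fell and 1 rose by day 6, and 3 rose and 1 fell by day 10, CTGF again among them. Of 17 prostaglandin genes 3 fell and 3 rose by day 6, and 3 rose and 2 fell by day 10, with PTGS2 in both steps. Of 42 guidance genes 8 fell and 7 rose by day 6, and 3 rose and 2 fell by day 10, SEMA3A in both. G protein-coupled receptors and RGS proteins gave 4 falls and 5 rises of 42 by day 6, and 8 rises and 7 falls by day 10, with GPRC5A and RGS2 as members. That list holds the member ADGRF1 only under its older symbol GPR110, which was not matched, so ADGRF1 is missing from these counts. Among 45 chromatin genes 2 fell and 0 rose by day 6, and 2 rose and 0 fell by day 10, CHD1 among them.

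Some gene names hold several coding sequences, which could move apart. Of the 54 members, 16 have more than 1, or 29.6% against 40.1% of measured genes. On the log2(CPM + 1) scale, 45 of their 89 measured coding sequences were at least 2-fold lower on day 6 than on both other days. Lower by any amount were 87. The 2 exceptions belong to LAMA3, at 3.46, 3.47 and 5.65 CPM and at 2.64, 2.72 and 4.55 CPM on days 4, 6 and 10, beside 11 LAMA3 sequences that dipped. On the log2(CPM + 1) scale all 18 coding sequences of LMO7 dipped by 2-fold, while the 17 of NEDD4L dipped by less than that each. The NEDD4L sequences were low, near the added 1, where the log2 difference is smaller than the ratio. An example had 4.07, 1.73 and 3.65 CPM on days 4, 6 and 10, with ratios above 2 in both steps.

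Coding length was not part of the rule. The median was 1432 bases (234 to 10004) for members and 1289 bases over the measured genes with a length. Among measured genes at least as long as the median member, 27 of 5481 (0.493%) had the pattern, and among shorter ones 34 of 6950 (0.489%). Over 12431 genes of the same libraries, the Spearman correlation of coding length was -0.128 with the day 6 minus day 4 difference and 0.0738 with that of day 10 minus day 6, so longer genes leaned weakly the way of the dip in both steps.

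At the edge of the rule, ITPKC (-1.02 between day 6 and day 4, 1.27 between day 10 and day 6), RUNX2 (-1.03 and 2.26) and ARHGAP28 (-2.35 and 1.03) were just inside on the log2 scale. USP2 (-0.99 and 2.14), LURAP1L (-1.87 and 0.99) and ARHGAP29 (-2.16 and 0.98) were just outside. In the deposited TPM, all 54 members were lowest on day 6 but only 45 by 2-fold in both steps; ARHGAP28, CDSN, CHD1, DOCK11, ITPKA, LOC100352679, LYN and PTPRJ are among the 9 that were not. With 5 added to the CPM in place of 1, 18 members kept the 2-fold dip.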

How the data were processed

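RNA sequencing of 3 libraries, 1 per stage, was analysed from 1 table per library listing 38696 coding sequences. The deposited fragment and read columns are estimated counts, many of them fractional. The deposited raw transcript column was taken as a coverage signal, reads times an implied length of 75 over the coding length. That reading was inferred from the values and gave the coding lengths. FPKM, RPKM and TPM, scaled for length and depth, were deposited too; FPKM gave the implied read length, TPM served as another scale, and RPKM was not used. OryCun2.0 is the build in the submitters' processing notes. Which aligner, counter and strand setting were applied is not given in the sources used here, and overlapping genes, antisense partners and near-identical copies can not be separated.

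Fragment counts were summed per gene name (20536) and scaled to CPM with TMM factors of 1.071, 0.958 and 0.974 (edgeR 4.0.16, R 4.3.3). The design had assumed whole counts; sums were rounded for TMM and for intervals only. Differences are of log2(CPM + 1), where low genes change less than their ratio; a gene counted as risen or fallen at 2-fold. A gene was measured at 1 CPM in at least 1 library. Intervals are exact 95% Clopper-Pearson intervals of the fragments of the libraries compared (scipy 1.17.1); PCR copies are not independent molecules. With 1 library per stage no test was possible. Members and gene lists were chosen with earlier results of these data known; roles and families were set after the values were seen. Values of 2 members are not reported here; the other 52 are named, and beside them their relatives and the 3 genes just inside and just outside the rule. LOC names took a symbol from RefSeq's gene table of assembly mOryCun1.1 where it gave one that the tables did not already hold (671 of 5185). Alternatives were plain totals, DESeq2 1.42.0 size factors, TPM, other pseudocounts, filters and thresholds, the coding sequence with most fragments, and read counts. The calculation was tested on simulated 4-fold dips of well expressed genes with counting noise only. That test did not cover dips near 2-fold, low genes or the spread between cultures. No sequence or genome of this build was used here.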

Additional observations from a re-analysis of the deposited data

How the results depend on the processing

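All 54 members stayed lowest on day 6 under each alternative, and none reversed. Another pseudocount, filter or threshold cannot change which day is lowest, so under those settings this was fixed in advance. The members had also been chosen by a dip of at least 2-fold. The number of dipping genes, 54, was 82 in the deposited TPM, 170 with a pseudocount of 0.1, 18 with a pseudocount of 5 and 1 (AKAP12) with a 4-fold threshold. It was 80 with plain totals, 56 with DESeq2 size factors, 58 with read counts, 53 with the coding sequence with most fragments, 49 with at least 5 CPM and 55 with rounded sums. Of the members, 45 kept the 2-fold dip in TPM, 50 in read counts (CDSN, ITPKA and RUNX2 are among those that did not) and 49 with the top coding sequence (ARHGAP28, ECM1, LYN, NEDD4L and NR4A2 did not). Members at least 2-fold higher on day 10 than on day 4 numbered 2 in TPM, 5 with a pseudocount of 5 and 1 at 4-fold, against 8; those lower numbered 6 in TPM, 5 with plain totals or a pseudocount of 0.1, 3 with a pseudocount of 5 and 1 at 4-fold, against 4. The median difference of day 10 minus day 4, 0.03, was -0.086 with plain totals, 0.023 with DESeq2 size factors, -0.23 in TPM, 0.099 with read counts and 0.022 without the members on the matrix lists (48 left). Plain totals and TPM shifted the median of all genes by -0.11 and -0.29 in that comparison and by -0.14 and -0.28 between day 6 and day 4; the cause of the other changes was not tested. Rounding the sums and leaving out the matrix members were chosen after seeing the data. No paired analysis was possible because each stage has 1 library, and no replicate could be left out. On day 6, 19 members had under 30 fragments, so their folds are loose.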
